A study of Mus musculus with 7 samples.

Results

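Hyaluronan is the long, unsulfated glycosaminoglycan of the pericellular coat, and the genes described here are 9 that make, bind or cut it: *Has1*, *Has2*, *Has3*, *Hyal1*, *Hyal2*, *Cemip*, *Tnfaip6*, *Ptx3* and *Cd44*. They were taken by symbol from the 47729 gene identifiers of a count table of mouse aorta, and all 9 were present and passed the filter on low counts that left 19188 genes for testing. The table holds 3 libraries of aortas of Mmp19-/- mice, labelled MMP19KO (KO), and 4 of wild-type mice, labelled Wt (WT). The protease encoded by *Mmp19* is secreted and cuts matrix proteins, and the series concerns its role in smooth muscle cells and in thoracic aortic aneurysm and dissection. Genotype is the only factor the labels give. The sources used here do not give the age, sex or strain of the mice, the kind of allele or any treatment, nor do they say that each library is 1 mouse, so p-values measure the spread between these 7 libraries.

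Hyaluronan is polymerised at the plasma membrane by the synthases HAS1, HAS2 and HAS3 from UDP-sugars and pushed out of the cell as it grows. It is cut at the cell surface and in lysosomes by hyaluronidases such as HYAL2 and HYAL1, and outside the cell with the help of CEMIP. TSG-6, the product of *Tnfaip6*, moves heavy chains of inter-alpha-inhibitor onto it, pentraxin 3 (*Ptx3*) links such chains into a network, and CD44 is its main cell-surface receptor. In arteries this polymer swells the matrix around smooth muscle cells after injury, when the synthases and TSG-6 are commonly induced.

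Estimated counts summed to between 68151472 and 76926790 per library, and values are given as CPM, that is, as counts on one library scale after TMM normalisation. All 8 smooth muscle markers were counted, summing to 3480, 13790 and 7199 CPM in KO replicates 1 to 3 and to between 18380 and 20330 CPM in WT, so the KO libraries stood apart from WT and from each other. Heart muscle markers summed to 576, 1046 and 10.9 CPM in KO replicates 1 to 3 and to between 18.6 and 93.8 CPM in WT. *Mmp19* itself was still counted, at 25.5, 11.9 and 15.9 CPM in KO replicates 1 to 3, against 24.8, 24.8, 20.7 and 34.7 CPM in WT replicates 1 to 4 (log2 fold change -0.56, SE 0.29, adjusted p = 0.368 in edgeR). KO replicate 1 lay inside the WT range. A count per gene does not show which exons were read. In RNA of whole tissue, fewer cells of a type and less RNA per cell cannot be told apart.

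The promoters shown are those of the 3 genes that were higher in every KO library than in any WT library, *Ptx3*, *Cemip* and *Has1*, and of *Tnfaip6*, whose product works on the polymer together with pentraxin 3. Each runs 5′ to 3′ from 250 bases before the RefSeq start to 50 bases after it on GRCm38.p6, at chr3:66219637-66219936 (plus strand) for *Ptx3*, chr2:52037863-52038162 (plus strand) for *Tnfaip6*, chr7:84086456-84086755 (minus strand) for *Cemip* and chr17:17855139-17855438 (minus strand) for *Has1*. Capitals mark matches to the motifs searched.
Ptx3: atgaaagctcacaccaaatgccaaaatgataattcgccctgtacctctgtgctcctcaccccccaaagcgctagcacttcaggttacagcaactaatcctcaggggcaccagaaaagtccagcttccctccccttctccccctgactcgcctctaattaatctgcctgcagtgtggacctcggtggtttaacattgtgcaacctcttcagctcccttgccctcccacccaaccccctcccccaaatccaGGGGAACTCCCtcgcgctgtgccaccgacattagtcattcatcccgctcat
Tnfaip6: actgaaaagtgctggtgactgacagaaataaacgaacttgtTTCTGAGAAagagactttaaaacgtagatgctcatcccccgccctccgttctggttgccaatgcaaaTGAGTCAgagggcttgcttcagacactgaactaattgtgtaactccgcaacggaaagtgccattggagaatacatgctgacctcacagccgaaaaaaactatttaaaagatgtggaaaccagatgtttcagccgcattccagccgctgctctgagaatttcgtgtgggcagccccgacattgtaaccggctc
Cemip: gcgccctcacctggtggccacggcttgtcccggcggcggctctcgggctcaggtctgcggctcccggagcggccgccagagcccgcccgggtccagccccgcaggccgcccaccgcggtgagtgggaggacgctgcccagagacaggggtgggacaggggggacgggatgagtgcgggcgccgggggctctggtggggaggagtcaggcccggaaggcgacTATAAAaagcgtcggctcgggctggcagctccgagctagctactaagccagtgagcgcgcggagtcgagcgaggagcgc
Has1: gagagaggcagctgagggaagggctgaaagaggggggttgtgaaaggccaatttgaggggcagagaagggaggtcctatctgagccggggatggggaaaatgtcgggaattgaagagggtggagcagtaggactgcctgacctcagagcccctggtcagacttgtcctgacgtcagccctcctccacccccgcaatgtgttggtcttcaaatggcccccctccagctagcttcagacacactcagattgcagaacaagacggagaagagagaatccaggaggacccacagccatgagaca

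Motifs for AP-1, NF-kB, STAT and the TATA box were searched on both strands. *Ptx3* held 2 NF-kB matches that overlap by all but 1 base and lie at the start itself, a motif present in 4.51% of the 32851 RefSeq promoter windows. *Tnfaip6* held a match to AP-1, searched as TGANTCA, beginning 142 bases before the start (7.81% of windows). It also held a match to STAT, searched as TTC and GAA with any 3 bases between them, beginning 209 bases before the start (8.3% of windows). *Cemip* held a TATA box, searched as TATAAA, beginning 29 bases before the start (13.6% of windows), and its window had a GC content of 73.7%. The window of *Has1* held none of the 4 motifs. A match describes letters only. Promoters of *Hyal1*, *Hyal2* and *Cd44* were also searched, and among these *Hyal2* alone held a match, to NF-kB.

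Across the 9 genes, 7 log2 fold changes were positive and 2 negative. Their median was 1.29, beside -0.03 for all 19188 tested genes. None passed edgeR's quasi-likelihood test after adjustment over all genes (0 of 9), where 0.0156% of all genes were called higher and 0.0% lower. The unadjusted p was under 0.05 for 7 of the 9, against 17.2% of all genes: 6 lay higher in KO, against 9.92% of all genes, and 1 lower, against 7.27%. DESeq2 called 7 of the 9, against 9.68% of the genes it gave an adjusted p: 6 higher, against 6.15%, and 1 lower, against 3.53%. These were *Has1*, *Has2*, *Cemip*, *Tnfaip6*, *Ptx3* and *Cd44*, all higher, and *Hyal1*, lower. The groups did not overlap for *Has1*, *Cemip* and *Ptx3*, with KO above WT (8.17% of all genes), and for *Hyal1*, with KO below WT (8.56% of all genes). Of the KO libraries, replicate 2 deviated least from the WT mean for 8 of the 9 genes, the exception being *Hyal2*.

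**Figure D1:**
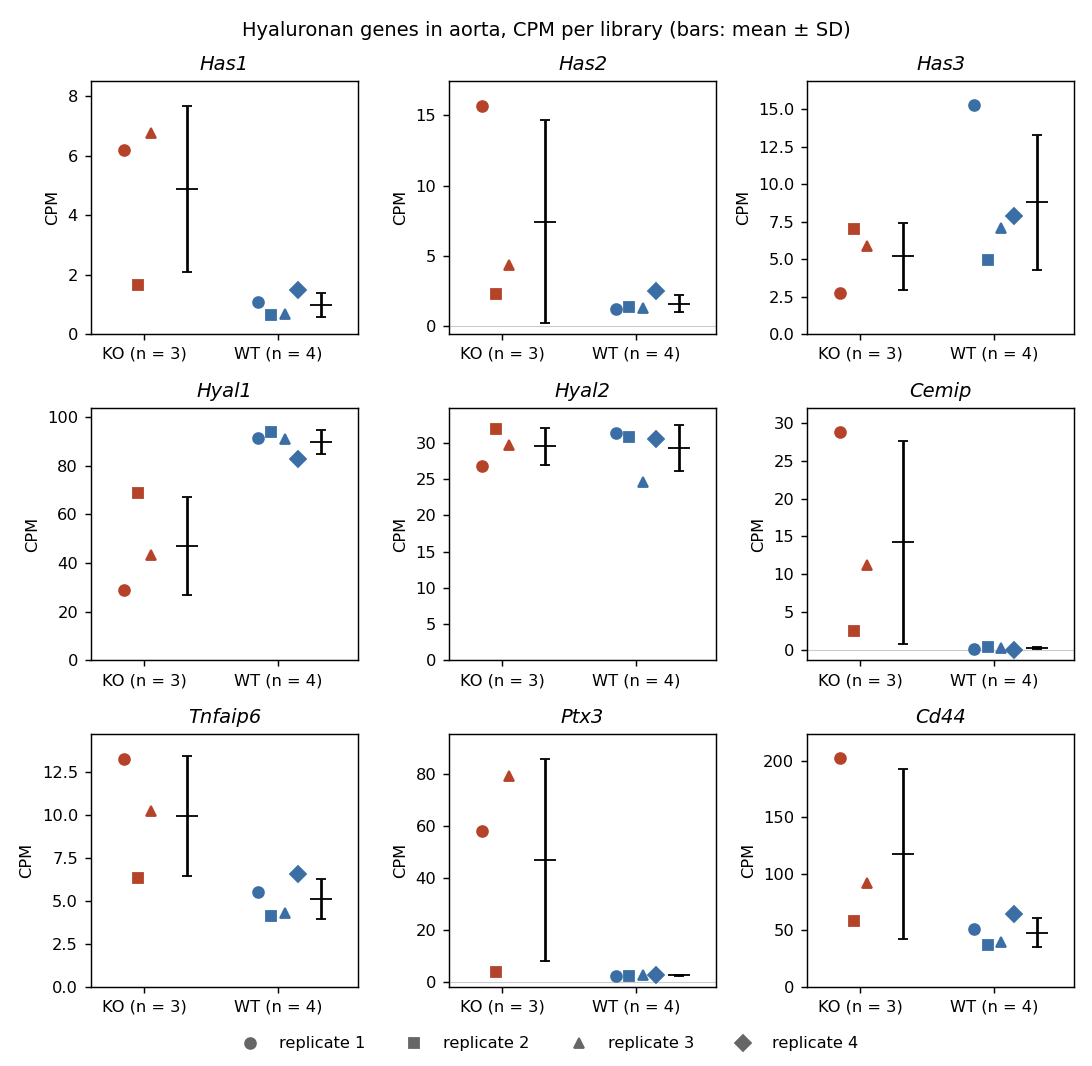
CPM of each hyaluronan gene in the 3 KO and 4 WT aorta libraries, 1 panel per gene, each point a library with its replicate number as the shape, and black bars the mean ± SD. KO and WT do not overlap for *Has1*, *Hyal1*, *Cemip* and *Ptx3*, and KO replicate 2 lies nearest to the WT points in those panels.

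The synthases did not lie in 1 direction: *Has1* and *Has2* read higher in KO and were called by DESeq2, and *Has3* read lower and was called by neither tool. *Has1* (ENSMUSG00000003665, chromosome 17, 17843323 to 17855205, minus strand, GRCm38) read 6.19, 1.66 and 6.78 CPM in KO replicates 1 to 3, against 1.08, 0.634, 0.674 and 1.49 CPM in WT replicates 1 to 4. Each KO value exceeded each WT value, that of KO replicate 2 by a small margin. The means were 4.88 ± 2.80 CPM in KO libraries and 0.971 ± 0.403 CPM in the WT libraries (SD, n = 3 and 4), a log2 fold change of 2.33 (SE 0.55, adjusted p = 0.17 in edgeR and 0.00142 in DESeq2). The exact 2-sided permutation p was 0.0286, the smallest that the 35 splits of these libraries can give. These are low levels, resting on 116 to 524 counts per KO library and 45 to 110 counts per WT library.

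*Has2* (ENSMUSG00000022367, chromosome 15, 56665627 to 56694539, minus strand), the synthase without which mouse embryos form no heart cushions, read 15.7, 2.27 and 4.34 CPM in the KO libraries, against 1.22, 1.38, 1.26 and 2.53 CPM in the WT libraries. KO replicate 1 stood far above the rest, and KO replicate 2 lay inside the WT range. Its log2 fold change was 2.22 (SE 0.65, adjusted p = 0.187 in edgeR and 0.0113 in DESeq2), with an exact permutation p of 0.0571. It was 1.05 without KO replicate 1 (adjusted p = 0.426 in edgeR) and 1.23 in limma-voom with quality weights (adjusted p = 0.193). Those weights were lowest for KO replicate 1 (0.256, against 0.753 to 2.61 for the other libraries), so these fits are not independent checks. The antisense gene *Has2os* shares 182 exonic bases with *Has2* on the opposite strand, so reads there cannot be assigned without the strand setting. *Has2os* itself averaged 0.675 ± 0.200 CPM in KO libraries, against 0.586 ± 0.361 CPM in the WT libraries (SD, n = 3 and 4), with a log2 fold change of 0.20 (SE 0.52, adjusted p = 0.873 in edgeR).

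*Has3* (ENSMUSG00000031910, chromosome 8, 106870242 to 106884566, plus strand) read 2.71, 7.02 and 5.87 CPM in the KO libraries, against 15.3, 4.97, 7.06 and 7.86 CPM in the WT libraries. The groups overlapped, and WT replicate 1 read nearly as high again as the next library. The log2 fold change of -0.76 (SE 0.47) passed neither test (adjusted p = 0.446 in edgeR and 0.336 in DESeq2). It was -0.34 without WT replicate 1 and -0.45 without KO replicate 1. *Has3* shares 352 exonic bases with *Chtf8* on the other strand, which averaged 96.4 ± 18.1 CPM in KO libraries and 87.1 ± 15.4 CPM in the WT libraries (SD, n = 3 and 4).

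Taken per kb of annotated exon, which lets genes be compared within a library, *Has3* made up less of the synthase transcripts in KO than in WT. Its share of the summed CPM per kb was 7.73%, 55.0% and 26.7% in KO replicates 1 to 3, against 82.0%, 62.6%, 71.2% and 57.1% in WT replicates 1 to 4. Each KO share was below each WT share, but KO replicate 2 by only a small margin. *Has1* held 24.9%, 18.3% and 43.6% in KO and 8.18%, 11.3%, 9.61% and 15.3% in WT. *Has2* held 67.4%, 26.7% and 29.7% in KO, against 9.85%, 26.2%, 19.2% and 27.6% in WT, so that the groups overlapped. Averages were 28.9 ± 13.1% for *Has1*, 41.3 ± 22.6% for *Has2* and 29.8 ± 23.8% for *Has3* in KO, against 11.1 ± 3.09%, 20.7 ± 8.11% and 68.2 ± 10.9% in WT (SD, n = 3 and 4). Without KO replicate 2 the KO mean for *Has3* was 17.2%. The summed level of the 3 synthases was 5.50, 2.00 and 3.45 CPM per kb in KO and 2.93, 1.25, 1.55 and 2.16 CPM per kb in WT, with overlapping groups.

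**Figure D2:**
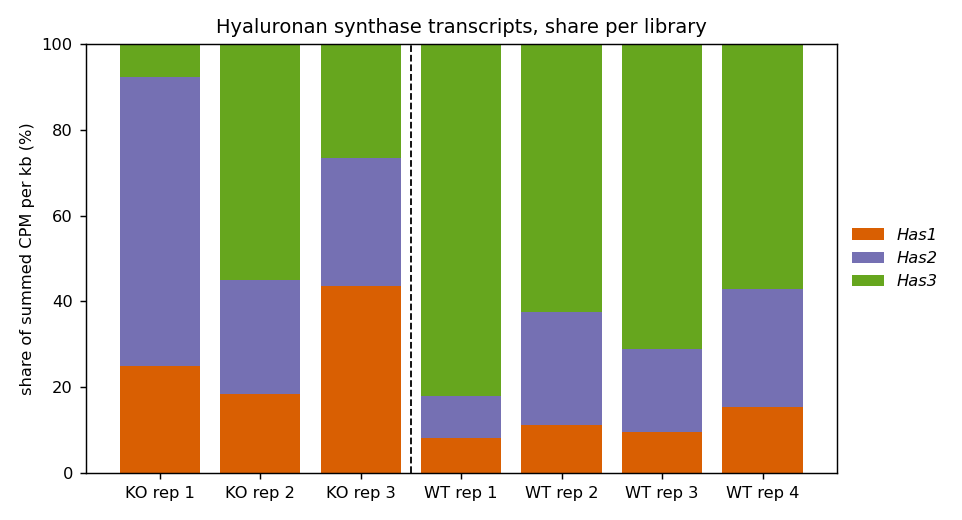
Share of *Has1*, *Has2* and *Has3* in their summed CPM per kb of exon (%), 1 stacked bar per library, KO libraries left of the dashed line and WT libraries right of it. *Has3* (top segment) takes 7.73% to 55.0% in KO and 57.1% to 82.0% in WT.

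Among the enzymes of breakdown, the lysosomal hyaluronidase read lower in KO and the extracellular factor CEMIP higher, both called by DESeq2 and not by edgeR. *Hyal1* (ENSMUSG00000010051, chromosome 9, 107576927 to 107581710, plus strand) read 28.8, 68.8 and 43.5 CPM in the KO libraries, against 91.5, 93.8, 90.7 and 82.6 CPM in the WT libraries. The WT libraries lay close together and every KO library lay below them. The means were 47.0 ± 20.2 CPM in KO libraries and 89.7 ± 4.91 CPM in the WT libraries (SD, n = 3 and 4), a log2 fold change of -0.93 (SE 0.27, adjusted p = 0.186 in edgeR and 0.0193 in DESeq2, exact permutation p = 0.0286).

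*Hyal1* shares 1920 of its 3777 exonic bases with *Naa80*, an acetyltransferase gene on the same strand, so counts of this pair may be split between them. *Naa80* read 20.3, 41.8 and 34.0 CPM in KO libraries, against 82.7, 54.4, 46.1 and 74.3 CPM in WT, with a log2 fold change of -1.01 (SE 0.30, adjusted p = 0.188 in edgeR and 0.0199 in DESeq2). Smooth muscle markers moved with *Hyal1*: 8 of 8 had a negative log2 fold change, and their median log2 deviations from the WT mean were -2.38, -0.47 and -1.51 in KO replicates 1 to 3, where *Hyal1* had -1.64, -0.38 and -1.04. The part of smooth muscle content in the *Hyal1* value was not tested.

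*Hyal2* (ENSMUSG00000010047, chromosome 9, 107567945 to 107572779, plus strand), the membrane-anchored hyaluronidase next to *Hyal1* in the genome, read 26.9, 31.9 and 29.8 CPM in the KO libraries, against 31.4, 30.9, 24.6 and 30.5 CPM in the WT libraries. The ranges of both groups overlapped almost wholly. Its log2 fold change was 0.01 (SE 0.13, adjusted p = 0.981 in edgeR), the smallest in size of the 9. As a share of the summed CPM per kb of both hyaluronidases, *Hyal1* held 48.3%, 65.3% and 56.0% in KO, against 71.8%, 72.6%, 76.3% and 70.2% in WT. That share does not depend on the scaling of libraries, and its groups did not overlap.

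*Cemip* (ENSMUSG00000052353, chromosome 7, 83932857 to 84086502, minus strand), which encodes a secreted hyaluronan-binding protein needed for depolymerisation in human skin fibroblasts, read 28.8, 2.53 and 11.2 CPM in the KO libraries, against 0.125, 0.282, 0.258 and 0 CPM in the WT libraries. This is 2373, 177 and 867 counts in KO against 8, 20, 18 and 0 counts in WT, so the gene was close to undetected in WT. Its log2 fold change of 6.40 (SE 1.19) was the largest of the 9 and was exceeded by 18 of the 19188 tested genes. It passed DESeq2 (adjusted p = 6.02e-08) but not edgeR (adjusted p = 0.165), and the exact permutation p was 0.0286. It was 5.34 without KO replicate 1 and 7.61 in limma-voom. *Cemip* was the one gene of the 9 for which KO replicate 2 also stood several-fold above each WT library.

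The secreted binding proteins both read higher in KO and were called by DESeq2, to different extents. *Ptx3* (ENSMUSG00000027832, chromosome 3, 66219910 to 66225805, plus strand) read 58.0, 3.81 and 79.2 CPM in the KO libraries, against 2.46, 2.25, 2.85 and 2.59 CPM in the WT libraries. KO replicates 1 and 3 were far above WT, KO replicate 2 was just above, and the WT libraries were nearly alike. The means were 47.0 ± 38.9 CPM in KO libraries and 2.54 ± 0.252 CPM in the WT libraries (SD, n = 3 and 4), a log2 fold change of 4.21 (SE 0.83, adjusted p = 0.165 in edgeR and 1.79e-06 in DESeq2, exact permutation p = 0.0286). Without KO replicate 2, the KO library nearest to WT, it was 4.80 (SE 0.17, adjusted p = 0.00123 in edgeR). Without KO replicate 1 it was 4.02 and without KO replicate 3 it was 3.63 (adjusted p = 0.285 and 0.272 in edgeR). Limma-voom gave 3.79 (adjusted p = 0.15). The *Ptx3* window printed above is the one with NF-kB letters at the start.

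*Tnfaip6* (ENSMUSG00000053475, chromosome 2, 52038009 to 52056686, plus strand) read 13.2, 6.31 and 10.2 CPM in the KO libraries, against 5.53, 4.11, 4.30 and 6.58 CPM in the WT libraries. KO replicate 2 lay inside the WT range and the other KO libraries above it. The means were 9.94 ± 3.48 CPM in KO libraries and 5.13 ± 1.16 CPM in the WT libraries (SD, n = 3 and 4), a log2 fold change of 0.95 (SE 0.30, adjusted p = 0.2 in edgeR and 0.0356 in DESeq2, exact permutation p = 0.0571).

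*Cd44* (ENSMUSG00000005087, chromosome 2, 102811141 to 102901665, minus strand), the receptor, was the most abundant of the 9 by CPM in KO. It read 202.7, 58.6 and 91.8 CPM in the KO libraries, against 51.1, 36.8, 39.5 and 64.9 CPM in the WT libraries, and KO replicate 2 was within the span of WT. The difference on the log2 scale of 1.29 (SE 0.41, adjusted p = 0.204 in edgeR and 0.0306 in DESeq2, exact permutation p = 0.0571) was 0.64 without KO replicate 1 (adjusted p = 0.44 in edgeR) and 0.78 in limma-voom (adjusted p = 0.209).

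CD44 is also carried by most leukocytes. General leukocyte, macrophage and neutrophil markers ranked the KO libraries as *Cd44* did, and T and B cell markers did not. Of 5 general leukocyte markers 5 had a positive log2 fold change, summing to between 141 and 856 CPM in KO libraries and between 61.7 and 134 CPM in WT. Of 10 macrophage and monocyte markers 10 were positive, summing to between 670 and 3755 CPM in KO libraries and between 304 and 521 CPM in WT, and of 6 neutrophil markers 5 were positive, with 11.0 to 328 CPM in KO libraries and 3.74 to 14.8 CPM in WT. None of these markers was at 0 in every library. Their median log2 deviations were 3.61, 0.90 and 1.71 (general), 3.10, 0.82 and 1.80 (macrophage) and 5.79, 0.87 and 3.34 (neutrophil) in KO replicates 1 to 3, beside 2.11, 0.32 and 0.97 for *Cd44*. *Has2* (3.34, 0.57 and 1.49), *Cemip* (7.70, 4.20 and 6.34) and *Tnfaip6* (1.39, 0.32 and 1.02) had the same order. By size of deviation, so did values that fell: *Hyal1* (-1.64, -0.38 and -1.04), *Has3* (-1.56, -0.20 and -0.46) and the smooth muscle list (-2.38, -0.47 and -1.51). The order of the KO libraries was thus not particular to leukocyte markers. Of 7 T and B cell markers 3 were positive and 4 negative, with median log2 deviations of -0.08, 0.65 and 0.08. They summed to 13.6, 30.3 and 21.1 CPM in KO replicates 1 to 3 and to between 9.22 and 94.8 CPM in WT. The part of leukocyte content in the values of *Cd44*, *Has2*, *Cemip* and *Tnfaip6* was not tested.

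*Has1* and *Ptx3* were ordered differently, with KO replicate 3 highest. *Has1* deviated by 2.72, 0.84 and 2.86 and *Ptx3* by 4.50, 0.59 and 4.95 in KO replicates 1 to 3. For *Has1*, KO replicates 1 and 3 lay close together. KO replicate 2 was the lowest KO library for both genes, as for the general leukocyte, macrophage and neutrophil lists. The part of leukocyte content in the *Has1* and *Ptx3* values was not tested. Mesothelium, the cell sheet that covers serosal surfaces and makes hyaluronan, was followed by 7 markers, all 7 with a positive log2 fold change. They summed to 47.3, 80.7 and 130.8 CPM in KO libraries, against 76.3, 31.6, 83.5 and 55.5 CPM in WT, and none was at 0 in every library. In KO replicate 1, where *Has1* was high, this sum was below that of 3 of the 4 WT libraries. By marker, *Wt1* and *Krt8* read 3.00 and 6.36 CPM there, above the WT maxima of 2.43 and 3.70 CPM. The other markers lay inside the WT range. The part of mesothelial content in the *Has1* value was not tested. Summed fibroblast markers overlapped between the groups (12750 to 20150 CPM in KO libraries and 9929 to 18200 CPM in WT, 6 of 8 positive). By marker, *Lum* lay above WT in every KO library (422 to 486 CPM against 139 to 225 CPM), as in 8.17% of all genes. *Clec3b* lay below WT (44.0 to 128 CPM against 154 to 192 CPM), as in 8.56% of all genes. The other fibroblast markers overlapped. The part of fibroblast content in the values of the 9 genes was not tested.

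**Figure D3:**
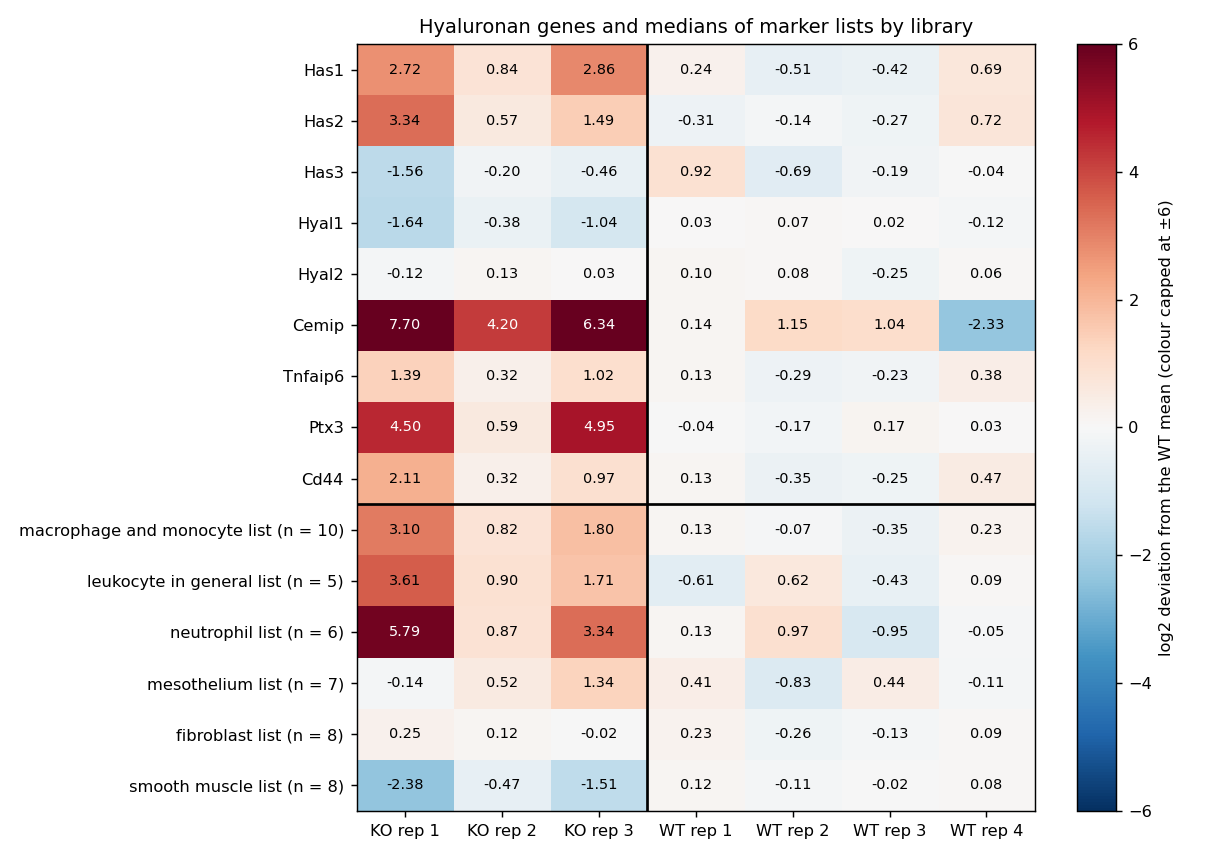
Log2 deviation of CPM from the WT mean in each library, for the 9 genes (above the line) and as the median of 6 marker lists (below it), KO libraries left of the vertical line. Red is above and blue below the WT mean. KO replicate 1 is the most extreme KO library for *Has2*, *Cemip*, *Tnfaip6*, *Cd44* and the general leukocyte, macrophage and neutrophil lists. The same library is the most extreme for the fibroblast list and, below WT, for *Has3*, *Hyal1* and the smooth muscle list. KO replicate 3 is so for *Has1*, *Ptx3* and the mesothelium list.

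Fold changes were set side by side with those obtained without each KO library. Without KO replicate 2, edgeR called 6 of the 9 genes: *Has1*, *Has2*, *Cemip*, *Tnfaip6* and *Ptx3* were called higher, against 3.34% of all genes, and *Hyal1* lower, against 1.81% of all genes. *Cd44* was just outside (adjusted p = 0.0502). With any other single library left out, edgeR called 0 of the 9.

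**Figure D4:**
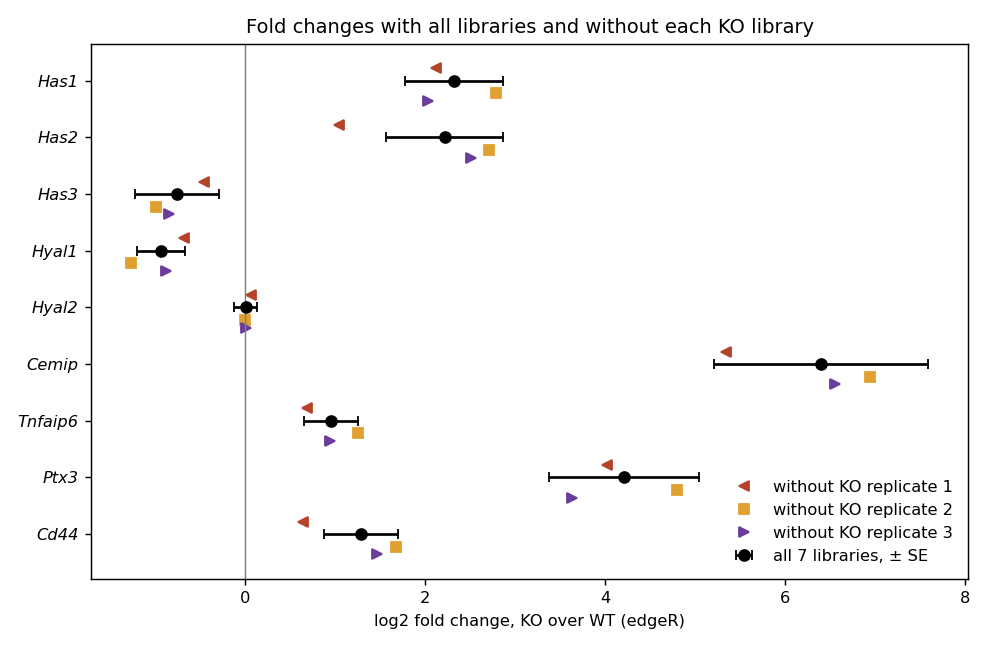
Log2 fold change of each gene, KO over WT, from edgeR with all 7 libraries (black, ± SE) and without each KO library in turn (coloured symbols). *Cemip* and *Ptx3* stay at 3.63 or more in each of these fits, while *Has2* and *Cd44* are at 1.05 and 0.64 without KO replicate 1.

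In WT, the order of the genes by mean CPM per kb of exon was *Hyal1* (23.7 ± 1.30), *Hyal2* (8.91 ± 0.959), *Cd44* (7.10 ± 1.89), *Tnfaip6* (3.00 ± 0.675), *Has3* (1.38 ± 0.707), *Ptx3* (0.947 ± 0.0939), *Has2* (0.377 ± 0.147), *Has1* (0.215 ± 0.0892) and *Cemip* (0.0136 ± 0.0107; SD, n = 4). The WT ranges of *Hyal2* and *Cd44*, of *Has3* and *Ptx3*, and of *Has2* and *Has1* overlapped, so these neighbours were not separated by their spread. In KO, *Ptx3* had the highest mean (17.5 ± 14.5), then *Cd44* (17.4 ± 11.1), *Hyal1* (12.4 ± 5.36), *Hyal2* (8.96 ± 0.772), *Tnfaip6* (5.81 ± 2.03), *Has2* (1.75 ± 1.71), *Cemip* (1.16 ± 1.10), *Has1* (1.08 ± 0.621) and *Has3* (0.815 ± 0.350; CPM per kb, SD, n = 3). In KO the intervals of mean ± SD overlapped between neighbours, except between *Hyal2* and *Tnfaip6* and between *Tnfaip6* and *Has2*.

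The genes whose log2 deviations over the 7 libraries lay nearest to those of each gene were found among genes of 2 CPM or more, by the root-mean-square difference. They were *Cd14* (0.223) and *Ifi204* (0.286) for *Has1*, *Tbxas1* (0.147) and *Dpep2* (0.151) for *Has2*, and *Dusp8* (0.162) and *Cdh18* (0.169) for *Has3*. For the breakdown genes they were *Fhl1* (0.0864) and *Gng8* (0.0938) for *Hyal1*, *Taf8* (0.0402) and *Mtfr1* (0.0438) for *Hyal2*, and *Sirpb1a* (0.872) and *Spp1* (0.956) for *Cemip*. For the binding proteins they were *Mid1-ps1* (0.128) and *Rasa3* (0.132) for *Tnfaip6*, *Serpina3g* (0.465) and *Hmox1* (0.546) for *Ptx3*, and *Eps8* (0.115) and *Gpr183* (0.149) for *Cd44*. Among the 9 themselves, *Tnfaip6* and *Cd44* were the pair nearest to each other (0.277), followed by *Has3* and *Hyal1* (0.508) and by *Has2* and *Cd44* (0.553). These distances are descriptions of 7 libraries that share 1 contrast.

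The other genes of hyaluronan metabolism and binding were followed as 7 lists by role with 44 genes, of which 36 were tested. EdgeR called 0 of the 36 (11 had an unadjusted p under 0.05, against 17.2% of all genes), and DESeq2 called 4 higher, against 6.15% of the genes it gave an adjusted p, and 0 lower, against 3.53%. Their median log2 fold change was 0.33, beside -0.03 for all tested genes, with 23 positive and 13 negative. KO lay above WT without overlap in 7 of them, against 8.17% of all genes, and below in 2, against 8.56%.

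The genes listed for the precursors UDP-glucuronic acid and UDP-N-acetylglucosamine, not all of them enzymes of supply, were 8 positive and 2 negative of 10. Their median was 0.35, with 0 calls by either tool. *Uap1*, the last enzyme on the way to UDP-N-acetylglucosamine, read 93.7, 87.2 and 137 CPM in KO libraries, against 75.2, 74.5, 64.5 and 83.8 CPM in WT (log2 fold change 0.51, SE 0.18, adjusted p = 0.225 in edgeR). Every KO library was above every WT library, as in 8.17% of all genes. *Gfpt1*, the entry enzyme of the hexosamine pathway, had a log2 fold change of 0.40 (SE 0.16, adjusted p = 0.264 in edgeR) and its relative *Gfpt2* 0.37 (SE 0.20, adjusted p = 0.382 in edgeR).

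Lysosomal enzymes that finish breakdown also read higher in KO, with no call by either tool for the pair described here. *Gusb*, beta-glucuronidase, read 148, 55.7 and 64.8 CPM in KO libraries, against 54.9, 40.4, 41.0 and 53.1 CPM in WT (log2 fold change 0.92, SE 0.34, adjusted p = 0.234 in edgeR and 0.0857 in DESeq2). *Hexa*, which encodes a hexosaminidase subunit, read 226, 121 and 118.0 CPM in KO libraries, against 109, 94.9, 90.7 and 111 CPM in WT (log2 fold change 0.61, SE 0.24, adjusted p = 0.258 in edgeR and 0.139 in DESeq2). For both genes KO lay above WT without overlap, as in 8.17% of all genes, opposite in sign to *Hyal1*. They are general lysosomal enzymes that macrophages also make, and macrophage marker values are given beside *Cd44*. The part of macrophage content in the *Gusb* and *Hexa* values was not tested. *Hyal4*, *Hyal5*, *Hyal6* and *Spam1* did not pass the filter on low counts.

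Among other receptors, 6 of 7 had a positive log2 fold change, and DESeq2 called 2 higher, against 6.15% of the genes it gave an adjusted p. *Tlr2*, an innate receptor that responds to hyaluronan fragments, read 33.7, 13.4 and 22.8 CPM in KO libraries, against 6.52, 8.56, 9.60 and 10.8 CPM in WT (log2 fold change 1.39, SE 0.32, adjusted p = 0.17 in edgeR and 0.00242 in DESeq2). *Hmmr*, a hyaluronan-binding protein of the mitotic spindle whose transcript follows cell division, read 29.2, 4.77 and 6.63 CPM in KO libraries, against 4.03, 4.06, 2.21 and 3.26 CPM in WT (log2 fold change 2.00, SE 0.62, adjusted p = 0.199 in edgeR and 0.0178 in DESeq2). Both had every KO library above every WT library, as did 8.17% of all genes. *Stab1*, a scavenger receptor of macrophages and sinusoidal endothelium, had a log2 fold change of 0.96 (SE 0.41, adjusted p = 0.286 in edgeR).

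The hyalectans and link proteins, which bind the polymer in cartilage-like aggregates, divided into 3 positive and 4 negative of 7 tested. *Acan*, which is also named in the series title, was higher in DESeq2 (adjusted p = 0.000233, log2 fold change 1.54 and SE 0.30 in edgeR, adjusted p = 0.165 in edgeR). It is also a cartilage marker. The other 5 cartilage markers summed to 205, 84.5 and 64.8 CPM in KO replicates 1 to 3 and to 68.6, 28.5, 32.7 and 48.0 CPM in WT replicates 1 to 4, with overlapping groups, and 4 of 4 tested had a positive log2 fold change. Of these 4, *Col2a1* had every KO library above every WT library, as did 8.17% of all genes. It read 27.5, 6.81 and 8.08 CPM in KO replicates 1 to 3 and 0.225 to 1.33 CPM in WT. Its log2 fold change was 4.09 (SE 0.75, adjusted p = 0.165 in edgeR and 9.12e-07 in DESeq2). *Comp*, *Sox9* and *Col9a1* overlapped between the groups. The part of cartilage content in the *Acan* value was not tested. Among the link proteins, *Hapln3* averaged 0.346 ± 0.142 CPM in KO libraries and 0.659 ± 0.161 CPM in WT, and *Hapln4* 1.02 ± 0.765 CPM in KO libraries and 0.420 ± 0.159 CPM in the WT libraries (SD, n = 3 and 4), neither called by either tool. The log2 fold changes of all 4 tested genes of the inter-alpha-inhibitor heavy-chain family were negative, and none was called. *Itih3* read 1.53, 4.58 and 3.06 CPM in KO libraries, against 7.08, 5.91, 5.85 and 5.63 CPM in WT (log2 fold change -1.0, SE 0.37, adjusted p = 0.234 in edgeR). Its KO libraries all lay below its WT libraries, as in 8.56% of all genes. *Itih2*, *Itih5* and *Itih4* had log2 fold changes of -0.51 (SE 0.37), -0.13 (SE 0.25) and -0.06 (SE 0.31). *Ambp*, which encodes the bikunin core, did not pass the filter. Of 2 other binding proteins, *Habp4* had a log2 fold change of -0.40 (SE 0.15, adjusted p = 0.233 in edgeR) and *C1qbp* 0.03 (SE 0.15, adjusted p = 0.938 in edgeR).

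**Figure D5:**
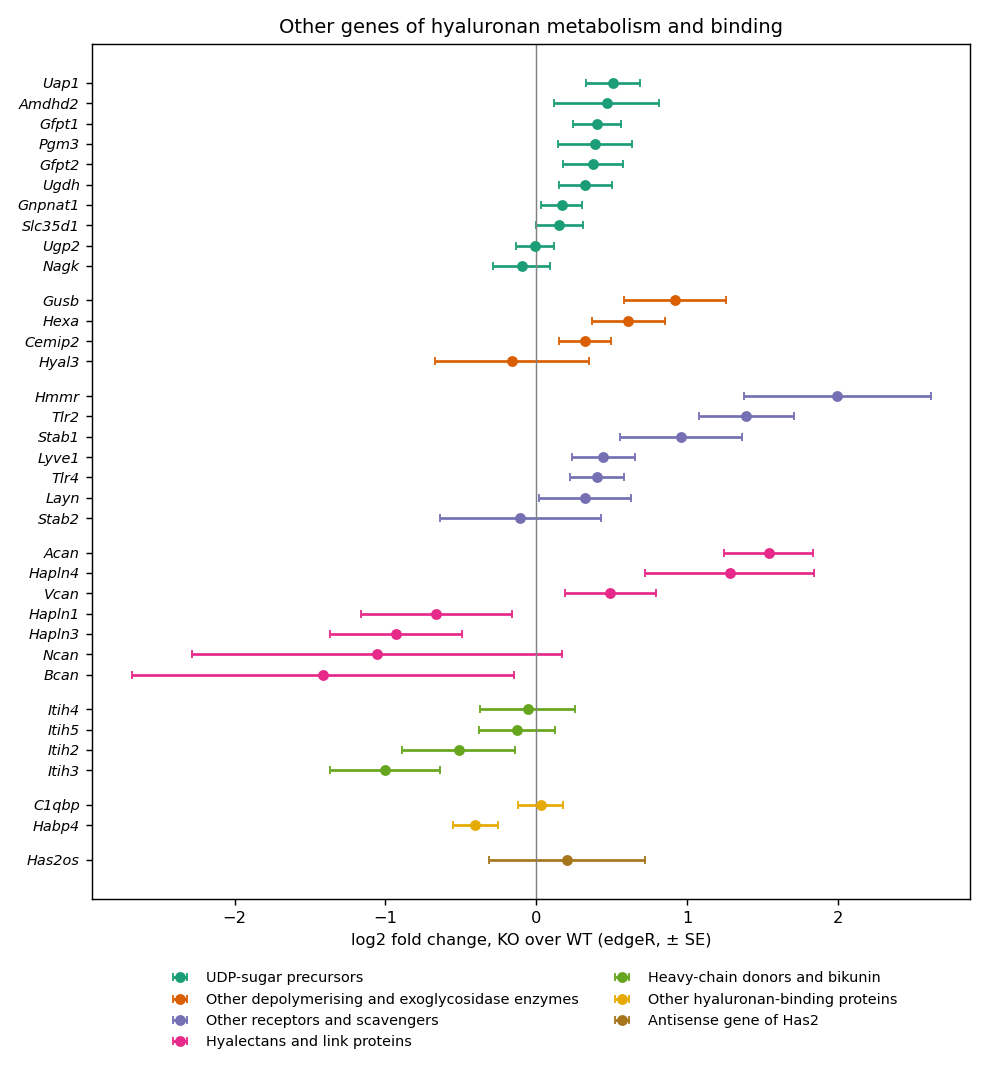
Log2 fold change ± SE, KO over WT, of 35 tested genes of hyaluronan metabolism and binding other than the 9, grouped by role (colours). *Hmmr*, *Acan* and *Tlr2* lie farthest to the right, at 2.00, 1.54 and 1.39, and the 4 heavy-chain family genes lie at or left of -0.06.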

How the data were processed

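RNA of 3 KO and 4 WT aorta libraries was sequenced. The authors deposited estimated counts per gene, whole numbers not scaled between libraries, and the submitters' processing notes name GRCm38 and mm10 as builds. No aligner, counter, annotation release or strand setting was found (not given in the sources used here). In 7 of 7 libraries more genes had 4 counts than 3, and more had 8 than 7, which was not explained by the sources used here. Of 47729 identifiers 47224 matched a symbol. Positions and exon lengths come from GENCODE M21 (GRCm38) and promoters from RefSeq.

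Rounding left the counts unchanged. Genes were filtered with filterByExpr (19188 kept), scaled by TMM and tested with glmQLFit and glmQLFTest in edgeR 4.0.16 under R 4.3.3, without covariates, with Benjamini-Hochberg adjustment over all genes and a threshold of 0.05. SE is the size of the log2 fold change divided by the square root of F. Exact 2-sided permutation tests used log2 CPM (prior count 2) over the 35 splits. The procedure was tested on simulated counts.

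Alternatives were DESeq2 1.42.0, limma-voom 3.58.1 with quality weights, other scalings and filters, counts divided by 4, a block for the replicate number, and fits without each library. The 9 genes, the lists and the tests were chosen with earlier results of these data known. Named were all 9 genes, the 3 genes of each role list with the smallest p, any called by edgeR or DESeq2, *Has2os*, and the 2 genes nearest in pattern to each of the 9. *Naa80*, *Chtf8*, *Cemip2*, *Hyal4*, *Hyal5*, *Hyal6*, *Spam1*, *Ambp* and *Itih4* fall outside that rule and were named after their values were seen. The same holds for the markers *Col2a1*, *Comp*, *Sox9*, *Col9a1*, *Wt1*, *Krt8*, *Lum* and *Clec3b*. One gene that the rule names is not reported here. All 7 columns were used.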

Additional observations from a re-analysis of the deposited data

Results flagged for a closer look

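Libraries that stood apart within WT were looked for in 27 genes, the 9 and the named genes of the role lists, and chance gives such a gap in about 5% of groups of 4. *Has2* in WT replicate 4, at 2.53 CPM, was far from the other 3 WT libraries at 1.22 to 1.38 CPM, and it lay above KO replicate 2. *Hyal2* in WT replicate 3, at 24.6 CPM, was far below the other WT libraries at 30.5 to 31.4 CPM.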

How the results depend on the processing

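Over the 16 alternatives, 129 of 144 values of the 9 genes kept their direction and their side of the threshold. A further 13 gained a call, 7 with DESeq2 and 6 without KO replicate 2. The remaining 2 changed sign, both for *Hyal2* near 0 (-0.0038 without KO replicate 2 and -0.0668 without WT replicate 3, in a range of -0.0668 to 0.0666 when 1 library was left out), and the cause was not tested. The count of genes called, 3 with all libraries, was 0 with no filter, 7 with the stricter filter of 50 counts in 3 libraries, 7 with counts divided by 4, 7 with limma-voom and 1606 with DESeq2 (1020 higher and 586 lower). Leaving out 1 library gave between 0 and 1029 calls, with 1029 without KO replicate 2. Of the other hyaluronan genes, DESeq2 called 4, and leaving out 1 library gave between 0 and 2. The synthase shares moved by less than 1 SD with the longest transcript as length or without any 1 library, but the SDs in KO are wide: the mean *Has3* share in KO, 29.8%, was 17.2% without KO replicate 2 and 40.8% without KO replicate 1.

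Deviations of the same-numbered KO and WT libraries correlated by 0.0545, 0.0691 and 0.34, and those of differently numbered libraries by -0.234 to 0.147. The replicate number was not taken as a pairing, but these values do not settle whether it carries one. With the number as a block, over 6 libraries, edgeR called 0 genes, as it did in the same 6 libraries without the block, a fit added after seeing the data, and 0 of the 9. Levels below 1 CPM, such as *Cemip* in WT and *Has2os*, rest on few counts.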
